A study of Saccharomyces cerevisiae with 42 samples.

Results

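The comparison described here sets 4 arrays of the dpl1 strain against 4 arrays of the lcb4 lcb5 strain, all taken at 15 and 20 min of heat, among 42 arrays in all. The arrays were chosen by strain and time alone, with 2 replicates of each strain at each time. The samples are budding yeast, Saccharomyces cerevisiae, taken from log-phase cultures in the rich medium YPD and shifted to 39 C. The dpl1 strain (labelled dpl1D) carries a KanMX cassette in place of DPL1. The lcb4 lcb5 strain (labelled lcb4D/lcb5D) carries KanMX at both LCB4 and LCB5. The parental strain, JK939a, adds 4 arrays at the same times, and the parental genotype has no KanMX. All 3 strains are MAT alpha and share HMLa and the alleles his4, trp1, rme1, ura3-52 and leu2-3 112, so both deletions and the parent carry the same auxotrophies. Total RNA was the starting material, biotin the label and single-colour Affymetrix arrays the platform. How RNAs of different classes, such as transfer RNA, were labelled is not described here, so their signals may not measure amounts directly. The deposited values are on a log2 scale, where a difference of 1 is a 2-fold change.

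Sphingolipids are built on long-chain sphingoid bases, whose levels rise when yeast is heated. Lcb4 and Lcb5 are the kinases that add a phosphate to these bases, and Dpl1 is the lyase that breaks the phosphorylated bases down. A dpl1 cell can make sphingoid base phosphates but cannot split them, and an lcb4 lcb5 cell cannot make them, so the comparison sets the strain that retains these lipids against the strain that lacks them. The lipids themselves were not measured on these arrays.

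Of 5656 genes tested with limma, with time and replicate number as blocks, 67 (1.18%) differed between dpl1 and lcb4 lcb5 at a Benjamini-Hochberg adjusted p under 0.05. In dpl1 61 genes (1.08%) were higher and 6 (0.106%) were lower. Most of the higher transcripts were transfer RNAs: 50 of the 61. The rest of the higher group were 5 other non-coding RNAs, LCB4 and LCB5 themselves, 3 genes of the mitochondrial genome and YOR072W-B. The 6 lower genes were DPL1, KDX1, PIR3, PDR5, RIM21 and GLE1. At an unadjusted p under 0.05 there were 817 genes, and the median standard error of a difference was 0.169. The 67 calls became 24 and 29 without dpl1 20 min replicates 1 and 2, 36 without lcb4 lcb5 15 min replicate 1, and 30 and 29 without lcb4 lcb5 20 min replicates 1 and 2. The split also changed: 434 genes were called without replicate 1 (211 higher, 223 lower), 194 without replicate 2 (152 higher, 42 lower) and 157 in a fit of all 42 arrays (65 higher, 92 lower). Arrays of one strain and replicate at 15 and 20 min deviated together (correlations 0.655 and 0.728), and with that course as a random block 48 genes were called, 45 higher and 3 lower. Nothing in the labels says that replicates were separate cultures, so the p-values measure the spread between these arrays, which may be technical. Because RNA came from whole cultures, a change in every cell and a change in a fraction of the cells cannot be told apart.

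Quality differed between the arrays of the 2 replicates and, less evenly, between the strains. The replicate arrays of each strain and time had a correlation across genes of 0.953 to 0.970 and held no identical values. The 25S ribosomal RNA control probe set read 12.9 ± 0.408 (SD, n = 4) in dpl1 and 10.4 ± 3.25 in lcb4 lcb5. The low lcb4 lcb5 values were the replicate 2 arrays, at 9.21 and 6.42. The excess of 3' over 5' signal of the SRB4 control, which grows as RNA is shortened, was 0.94 ± 0.605 in dpl1, 1.55 ± 0.963 in lcb4 lcb5 and 1.46 ± 0.732 in the parent. The alpha pheromone gene MF(ALPHA)1 averaged 8.95 in dpl1 and 9.11 in lcb4 lcb5, while STE2, which encodes the receptor for that pheromone in a cells, averaged 3.47 in dpl1 and 3.28 in lcb4 lcb5. In dpl1 at 15 and 20 min the other alpha markers averaged 8.25 and 7.22 (MF(ALPHA)2), 7.30 and 6.74 (SAG1) and 4.66 and 4.36 (STE3). The other a markers averaged 5.45 and 5.27 (MFA2), 4.60 and 4.42 (MFA1), 4.37 and 4.12 (BAR1) and 3.52 and 3.50 (STE6). In lcb4 lcb5 STE3 averaged 5.18 and 5.53, and MFA2 5.21 and 4.93. STE3 in dpl1 thus lay below MFA2 in heat, though it stood at 8.16 before heat. The markers therefore check the mating type only in part at these times. The meiotic genes SPO11 and SPO13 averaged 2.53 and 2.40 in dpl1 and 2.77 and 2.56 in lcb4 lcb5, near the bottom of the scale. IME1, another diploid or meiotic marker, was not near the bottom, averaging 6.05 and 5.89 in dpl1 at 15 and 20 min. IME2 averaged 2.71 and 2.77 there, and SPS1 3.39 and 3.48. None of these marker genes was called.

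The deleted genes checked the labels. DPL1 (YDR294C) read 3.20 and 3.08 at 15 min and 2.58 and 3.05 at 20 min in dpl1, against 8.98 and 9.76 at 15 min and 9.40 and 10.03 at 20 min in lcb4 lcb5. The parent read 9.20 to 9.41, so every dpl1 array lay far below every other array. The difference was -6.57 ± 0.20 (SE, adjusted p 1.5e-06). A deleted gene reads near the bottom of the scale, so no fold change is given for it. LCB5 (YLR260W) read 6.74, 7.60, 7.19 and 7.66 in dpl1 (15 min replicates 1 and 2, then 20 min replicates 1 and 2), against 2.82, 3.30, 2.95 and 2.87 in lcb4 lcb5. Its difference was 4.31 ± 0.18 (adjusted p 1.01e-05). LCB4 (YOR171C) read 4.77, 4.67, 4.79 and 5.00 in dpl1, against 3.00, 3.48, 2.98 and 3.02 in lcb4 lcb5, a difference of 1.69 ± 0.16 (adjusted p 0.00109). The strains did not overlap for any of the 3. The sources used here do not say whether these probe sets lie inside the deleted parts. LCB5 stood at 7.37 and LCB4 at 4.94 in the parent, near the dpl1 means of 7.30 and 4.81. DPL1 in lcb4 lcb5 differed from the parent by 0.20 ± 0.20 (adjusted p 0.602).

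**Figure D1:**
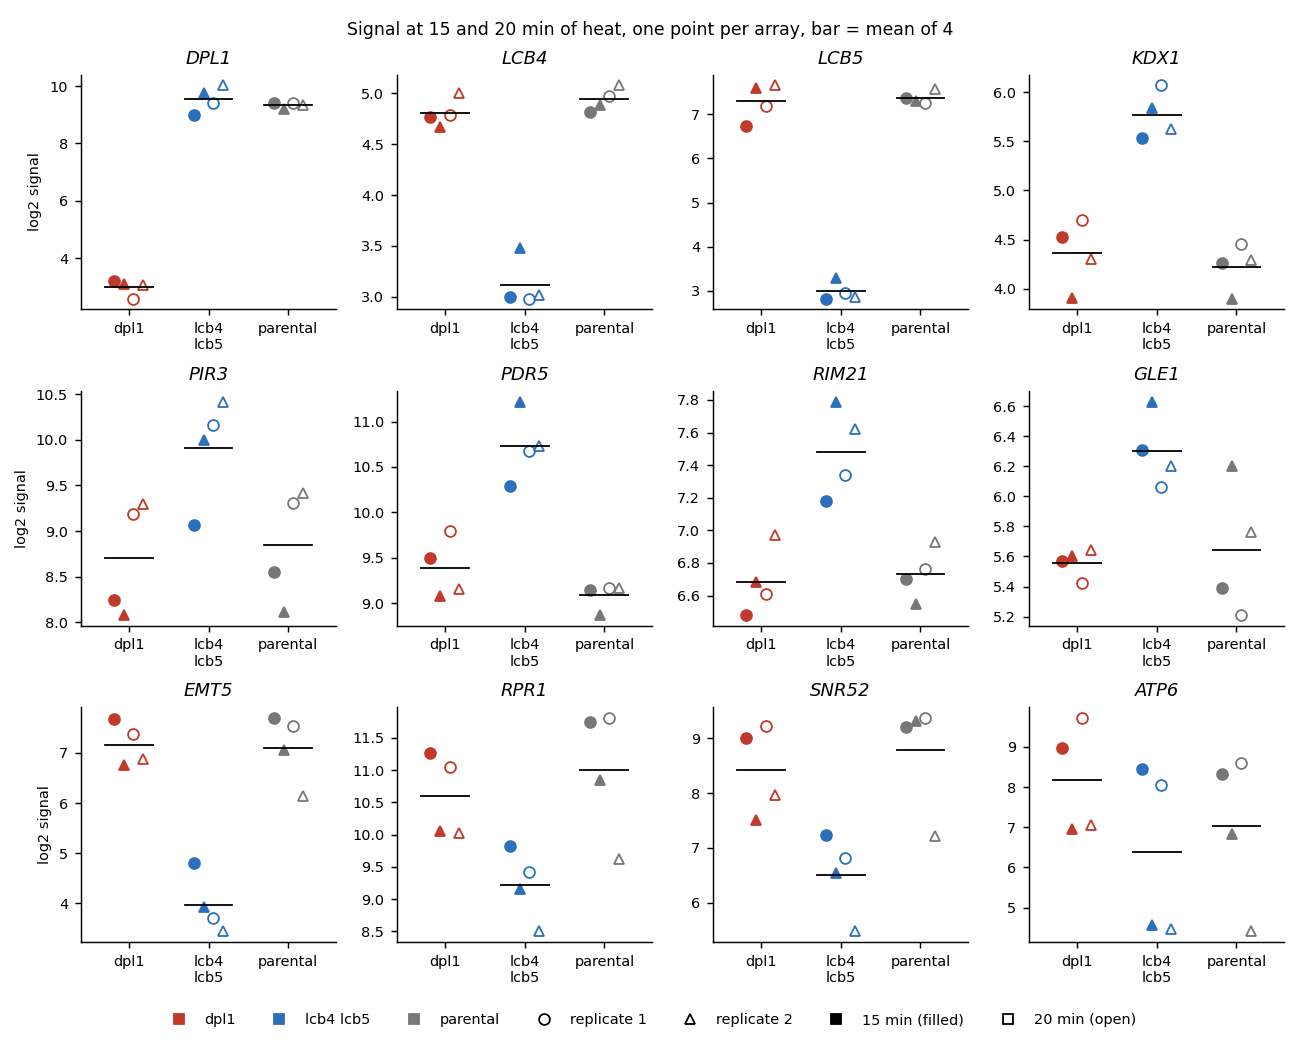
Log2 signal (vertical axes) of 12 genes on each of the 4 arrays at 15 and 20 min of heat in dpl1, lcb4 lcb5 and the parental strain; circles are replicate 1, triangles replicate 2, filled points 15 min, open points 20 min, and the bar is the mean of the 4. Each deleted gene is low in its own deletion, and for KDX1, PDR5 and EMT5 the lcb4 lcb5 arrays stand apart from both dpl1 and the parent.

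Transfer RNAs, the adaptors that carry amino acids to the ribosome, made up 74.6% of all called genes. All 91 measured tRNA genes had a positive difference, 78 of them at least 2-fold, and 50 (54.9%) were called higher in dpl1. None was lower. Over all genes 40.8% of differences were positive. The median tRNA difference was 1.49, against -0.06 over all genes. All 4 dpl1 arrays lay above all 4 lcb4 lcb5 arrays for 32 tRNA genes, a pattern shown by 1.73% of all genes. The called tRNA genes spanned 1.18 to 3.25 on the log2 scale, with adjusted p up to 0.0438. The 91 genes lie on 13 chromosomes, each with at least 1 called gene, and the median over all measured tRNA genes of a chromosome was 1.35 to 1.74. Most of the probe sets match gene families, so copies on different chromosomes may be read together and the chromosomes are not separate readings.

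EMT5 (YNCJ0016C), a gene for the elongator methionine tRNA, which brings methionine to positions after the start, showed the smallest p among them. It read 7.68 and 6.75 at 15 min and 7.37 and 6.87 at 20 min in dpl1, against 4.81 and 3.92 at 15 min and 3.70 and 3.44 at 20 min in lcb4 lcb5. The lowest dpl1 array stood well above the highest lcb4 lcb5 array. The difference was 3.20 ± 0.20, or 9.19-fold (adjusted p 0.000164). At 20 min its lcb4 lcb5 readings stood near those of a deleted gene, such as LCB4 at 3.48, so the fold change is approximate. The parent read 7.70, 7.05, 7.54 and 6.14, among the dpl1 values. EMT5 remained called when any of the 8 arrays was left out, with differences of 3.02 to 3.36.

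The tRNA gene YNCJ0018W had the largest difference among tRNA genes, 3.25 ± 0.25 (9.49-fold, adjusted p 0.000728). Its dpl1 arrays read 8.30, 7.08, 8.13 and 7.59, against 5.64, 4.41, 4.43 and 3.64 in lcb4 lcb5. The reading of 3.64 lay near that of a deleted gene, so this fold change is approximate too. YNCD0011W followed with 8.22, 6.90, 8.42 and 7.13 in dpl1, against 5.74, 4.30, 4.69 and 4.13 in lcb4 lcb5 (2.95 ± 0.22). For both genes the groups did not overlap. YNCE0010W, YNCB0015W, YNCK0006C, YNCM0033C, YNCJ0011W, YNCM0004C and YNCJ0014C differed by 2.95, 2.93, 2.93, 2.86, 2.85, 2.76 and 2.71, and YNCK0003W by 2.25. These 10 genes with systematic names ran within 0.98 of each other on each of the 8 arrays. YNCJ0015W (2.29 ± 0.24) and SUP19 (2.28 ± 0.30) formed a brighter pair, and SUP51 differed by 2.26 ± 0.31. SUP19 and SUP51, named for mutant alleles that suppress stop codons, averaged 10.33 and 8.88 in dpl1 and 8.05 and 6.62 in lcb4 lcb5. SUP51 was called in 3 of the 8 fits that left out 1 array and SUP19 in 7.

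Many tRNA genes exist in near-identical copies, and single genes are therefore uncertain. Of the 91 probe sets 74 carry the suffix that Affymetrix gives to probe sets matching a gene family and 13 the suffix for probe sets shared between transcripts. The medians of these kinds were 1.46 and 2.12, and 2 of the 3 probe sets without a suffix were called. The difference was not confined to a range of signal: the dimmest 31 tRNA genes had a median of 1.93, the middle 30 one of 1.27 and the brightest 30 one of 1.44, with 19, 14 and 17 called. The lowest difference of all, 0.26, belonged to a gene in the dimmest group.

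Both replicates showed the tRNA difference. The median was 1.79 within replicate 1, where 91 of 91 genes were higher in dpl1, and 1.21 within replicate 2, where 90 were. At 15 min the median tRNA signal was 9.21 and 7.17 in dpl1 (replicates 1 and 2), against 7.50 and 6.96 in lcb4 lcb5. At 20 min it was 8.46 and 7.49 in dpl1, against 6.57 and 5.75 in lcb4 lcb5. Replicate 2 at 15 min was thus the one pair with a gap of only 0.21, and the other 3 pairs were separated by 1.71 to 1.89. Parental medians were 9.46 and 8.07 at 15 min and 9.84 and 6.93 at 20 min.

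**Figure D2:**
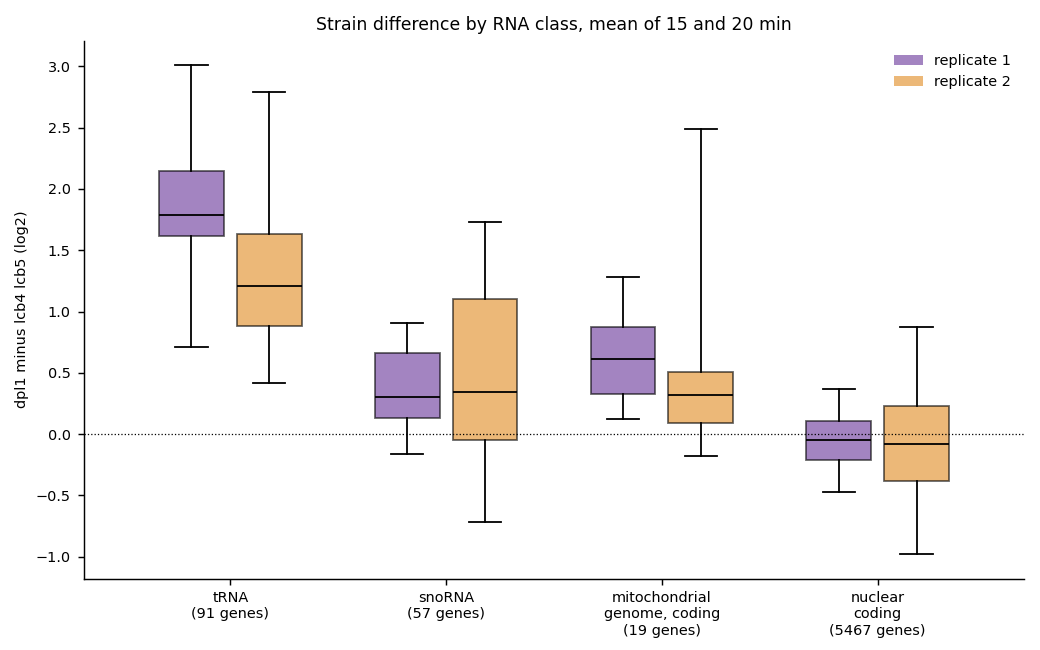
Strain difference (dpl1 minus lcb4 lcb5, log2, mean of 15 and 20 min) for 4 RNA classes with many genes within replicate 1 and within replicate 2; boxes span the quartiles over genes, the line is the median and whiskers run from the 5th to the 95th percentile. The tRNA medians (1.79 and 1.21) lie above those of the other classes plotted in both replicates, and nuclear protein-coding genes centre near 0.

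The rRNA controls were nearly equal between the strains in replicate 1, and the 25S control was far below in lcb4 lcb5 in replicate 2. In replicate 1 the 25S control read 13.15 and 13.27 in dpl1 and 13.14 and 13.02 in lcb4 lcb5, and the 18S control 13.13 and 13.19 in dpl1 and 13.14 and 13.07 in lcb4 lcb5. In replicate 2 the 25S control read 12.40 and 12.67 in dpl1 and 9.21 and 6.42 in lcb4 lcb5. Without the lcb4 lcb5 arrays of replicate 2, a setting chosen after the data were seen, 93 genes were called and 72 of them were tRNA genes. The SRB4 signal ran 0.59 and 0.27 in dpl1 and 0.58 and 0.87 in lcb4 lcb5 for replicate 1, and 1.50 and 1.40 in dpl1 and 2.36 and 2.40 in lcb4 lcb5 for replicate 2. With that signal as a covariate 3 genes were called, DPL1, LCB5 and EMT5, at the cost of 1 of 4 residual degrees of freedom. The 14 named tRNA genes stood at 2.07 to 2.99 with the covariate, against 2.25 to 3.25 without it, and 13 of them had adjusted p from 0.0966 to 0.312. These 14 were picked for large differences on the same arrays, and covariate values of the other tRNA genes are not given here. Outside tRNA the shifts varied. ATP6, AI1 and SNR41 stood at 0.52, 0.62 and 0.46 with the covariate, against 1.79, 2.12 and 1.24 without it, and PDR5 at -0.68, against -1.34. RPR1, YOR072W-B and LCB4 stood at 1.49, 1.67 and 1.75, against 1.38, 1.44 and 1.69. SNR45, SNR52 and GLE1 stood at 1.10, 1.85 and -0.74, against 1.11, 1.91 and -0.74. SCEI, SNR19, RIM21 and PIR3 stood at 0.97, 0.83, -0.71 and -0.82, against 1.20, 1.00, -0.80 and -1.21. The number of called tRNA genes also depended on single arrays. It was 28, 19 and 23 without dpl1 15 min replicate 1, 20 min replicate 1 and 20 min replicate 2, 22 without any one of lcb4 lcb5 15 min replicate 1 and the 20 min replicates, and 74 and 65 without the 15 min replicate 2 array of dpl1 and of lcb4 lcb5. All tRNA genes called in these fits were higher in dpl1.

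**Figure D3:**
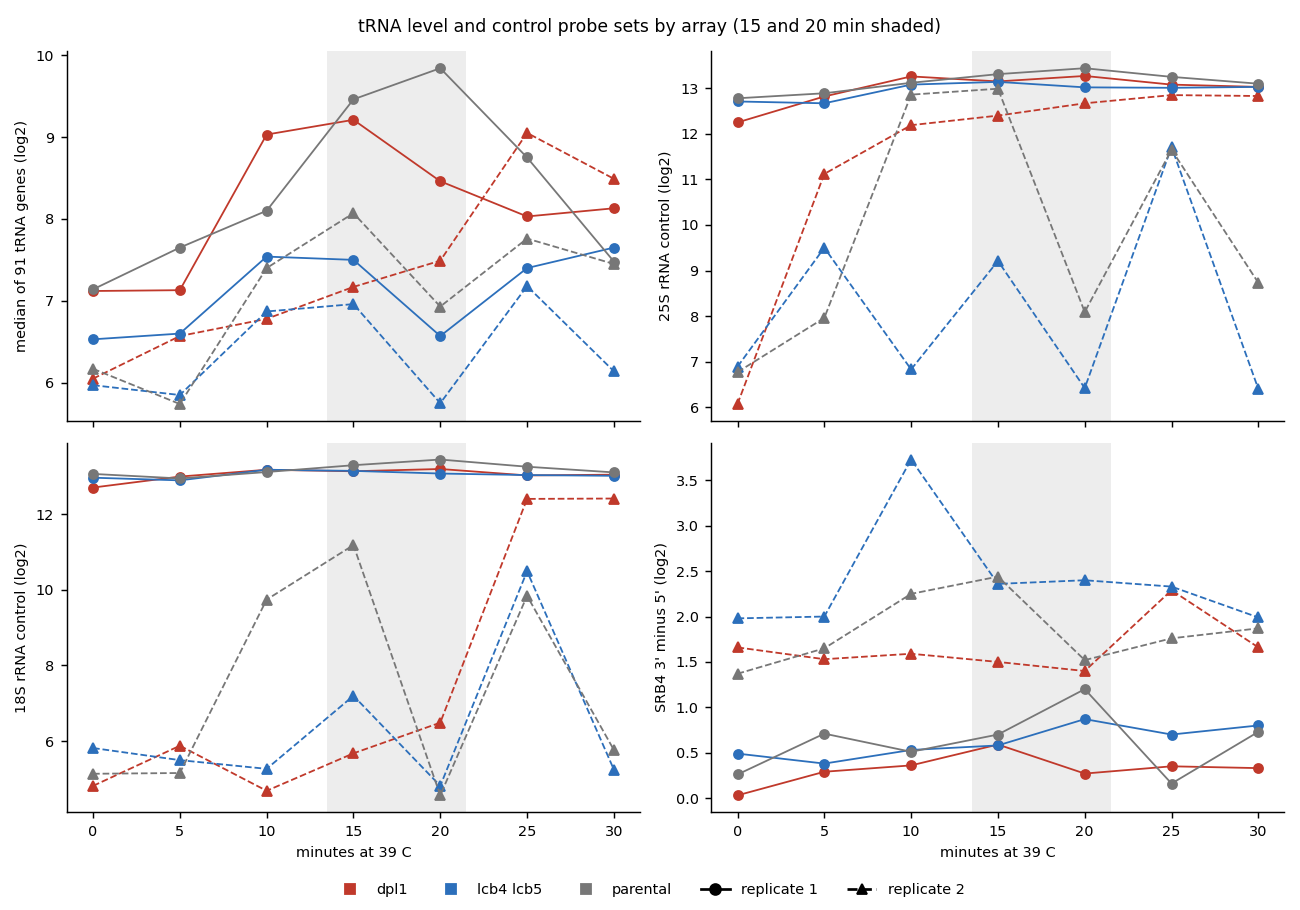
Median log2 signal of the 91 tRNA genes and log2 signals of 3 control measures on every array of the series against minutes at 39 C, for dpl1, lcb4 lcb5 and the parental strain (solid lines and circles, replicate 1; dashed lines and triangles, replicate 2; 15 and 20 min shaded). In replicate 1 the rRNA controls of the strains lie close together, and the tRNA medians are higher in dpl1 than in lcb4 lcb5 at all 7 times.

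Apart from tRNA, 5 non-coding RNAs were higher in dpl1. RPR1 (YNCE0007C), the RNA subunit of RNase P, which trims the 5' ends of tRNA precursors, read 11.27, 10.06, 11.05 and 10.03 in dpl1, against 9.82, 9.16, 9.42 and 8.50 in lcb4 lcb5. The groups did not overlap, and the difference was 1.38 ± 0.16 (adjusted p 0.00341). RPR1 stayed called without any one of the 8 arrays. SNR52, a guide RNA for ribosomal RNA methylation, read 9.00, 7.51, 9.23 and 7.96 in dpl1, against 7.23, 6.54, 6.81 and 5.48 in lcb4 lcb5 (1.91 ± 0.24, adjusted p 0.00691), again without overlap.

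Both RPR1 and SNR52 are made by RNA polymerase III, the enzyme that also makes tRNA, so its other measured products were set beside them. This grouping, like the choice of these genes, was made after their values were seen. SNR6, the U6 spliceosomal RNA, averaged 8.93 ± 1.11 in dpl1 and 8.36 ± 1.02 in lcb4 lcb5 (0.57 ± 0.37, adjusted p 0.484). RDN5-1, a 5S ribosomal RNA gene, averaged 13.91 ± 0.131 in dpl1 and 13.27 ± 0.389 in lcb4 lcb5, with no overlap (0.65 ± 0.17, adjusted p 0.147). RDN5-3, another 5S gene, stood at 2.19 ± 0.51 (adjusted p 0.0903). None of the 3 passed the test. SNR19, the U1 spliceosomal RNA, made by RNA polymerase II, was higher by 1.00 ± 0.14 (adjusted p 0.0105), and the guide RNAs SNR41 and SNR45 by 1.24 ± 0.22 and 1.11 ± 0.20. Those 2 and SNR19 were called in 2, 2 and 5 of the 8 fits without 1 array. With the course as a random block SNR45 was not called (adjusted p 0.0707). TLC1, the telomerase RNA, also named after its value was seen, was higher by 1.38, as RPR1 was. Its groups did not overlap, but it was not called (adjusted p 0.0713). Of 57 snoRNA genes in all, 3 were called higher (1.08% over all genes), 48 had a positive difference (40.8% over all genes), and the median was 0.32.

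Genes of the polymerase III machinery did not pass the test. Of 25 genes in the list of RNA polymerase I and III subunits none was called. RET1, one of the large subunits of polymerase III, had the smallest p of the list. It read 6.23, 5.99, 6.45 and 6.08 in dpl1, against 6.64, 7.10, 7.02 and 7.81 in lcb4 lcb5, a difference of -0.95 ± 0.22 (adjusted p 0.0841). The groups did not overlap. The list median was -0.26, made of 0.08 within replicate 1 and -0.64 within replicate 2. The next 3 genes were named after their values were seen. MAF1, the repressor of polymerase III, averaged 6.16 ± 0.107 in dpl1 and 6.03 ± 0.371 in lcb4 lcb5 (0.13 ± 0.16, adjusted p 0.721). BRF1 and BDP1, subunits of its initiation factor, stood at -0.52 ± 0.17 and -0.36 ± 0.18 (adjusted p 0.231 and 0.374). RPC53 and the TFC genes of this machinery were also looked at after their values were seen, and none was called. Over the course, both dpl1 arrays lay below both lcb4 lcb5 arrays at 7 of 7 times for TFC4 (-0.67 to -0.14). That held at 6 times for BRF1 and TFC8, 2 for TFC7, 1 for RPC53, TFC6 and BDP1, and 0 for TFC1 and TFC3. The reverse was seen at 1 time for RPC53 and TFC6.

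KDX1 (YKL161C), a kinase-like protein encoded by a target gene of the cell wall integrity pathway, had the largest called decrease after DPL1. It read 4.53 and 3.91 at 15 min and 4.70 and 4.30 at 20 min in dpl1, against 5.53 and 5.84 at 15 min and 6.07 and 5.63 at 20 min in lcb4 lcb5. The groups did not overlap. The difference was -1.41 ± 0.17 (2.66-fold lower in dpl1, adjusted p 0.00616), and it stayed called without any one of the 8 arrays. With the SRB4 signal as a covariate the difference was -1.04 (adjusted p 0.340). After centring on the hybridisation controls it was -1.45 and not called (adjusted p 0.285). KDX1 was also among the dimmest 25% of genes, which an alternative fit left out. The parent read 3.90 to 4.46, at the level of dpl1. All 4 dpl1 arrays lying below all 4 lcb4 lcb5 arrays was a pattern of 3.98% of genes.

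PIR3 (YKL163W), a protein cross-linked into the cell wall, read 8.24, 8.08, 9.19 and 9.30 in dpl1, against 9.07, 10.00, 10.16 and 10.42 in lcb4 lcb5. The pooled ranges overlapped, since both strains read higher at 20 min, but at each time the dpl1 arrays lay below the lcb4 lcb5 arrays. The difference was -1.21 ± 0.19 (adjusted p 0.0235), and it was called in 4 of the 8 fits without 1 array, with adjusted p up to 0.0952. Of 58 measured cell wall genes KDX1 and PIR3 were the 2 called, both lower, where 0.106% of all genes were called lower. The list median was -0.20 against -0.06 over all genes, the members ran from -1.41 to 0.52, 18 were positive, and 5 members had all dpl1 arrays below all lcb4 lcb5 arrays. Other genes of the cell wall integrity pathway were looked at after their values were seen, and none of them passed. SLT2, its MAP kinase, stood at -0.59 ± 0.22 (adjusted p 0.286), RLM1, the factor that Slt2 activates, at -0.47 ± 0.16 (0.246), and the wall protein PST1 at -0.98 ± 0.26 (0.147). CRH1, a chitin transglycosylase, stood at -0.67 ± 0.20 (0.185), and YPS3, a surface protease, at -0.59 ± 0.17 (0.169). PRM5, a target gene of the pathway, stood at -1.01 ± 0.32 (0.199) and GSC2, a glucan synthase, at -0.51 ± 0.17 (0.221). Among structural wall proteins chosen in the same way, SED1 stood at 0.12 ± 0.17, PIR1 at 0.09 ± 0.23, CIS3 at 0.00 ± 0.21, CCW14 at -0.10 ± 0.21 and HSP150 at -0.24 ± 0.13. CWP1, a mannoprotein of the wall, stood at -0.43 at 15 min and -0.44 at 20 min, near RLM1 and GSC2. A wall protein such as PST1 can also be a pathway gene, so these groupings are not exclusive. Whether pathway genes and structural genes differ was not tested.

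PDR5 (YOR153W), the main multidrug efflux pump of the plasma membrane, read 9.50, 9.08, 9.80 and 9.16 in dpl1, against 10.29, 11.22, 10.68 and 10.73 in lcb4 lcb5. The groups did not overlap and the difference was -1.34 ± 0.24 (adjusted p 0.0382). The parent lay at 8.87 to 9.17. The gene has 7 probe sets, of which the brightest was used, and the mean of all 7 gave -0.47 (adjusted p 0.418). The call also held in only 1 of the 8 fits without 1 array, where adjusted p ran from 0.0415 to 0.165. With the course as a random block the adjusted p was 0.0596, and without the lcb4 lcb5 arrays of replicate 2 the difference was -0.83 (adjusted p 0.0611). It was the single call among 26 multidrug resistance genes, whose median was -0.20. PDR15, a close relative, and PDR3, a regulator of both pumps, were named after their values were seen and stood at -0.81 ± 0.17 and -0.81 ± 0.19 (adjusted p 0.0713 and 0.095), each without overlap. PDR1, SNQ2 and YOR1, also chosen after their values were seen, stood at -0.32, 0.15 and -0.24, and the pooled ranges of the strains overlapped for all 3. Taken by time, the dpl1 arrays lay below the lcb4 lcb5 arrays for PDR1 at 15 and 20 min and for YOR1 at 15 min only.

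RIM21 (YNL294C), a sensor of external alkaline pH, read 6.48, 6.68, 6.61 and 6.97 in dpl1, against 7.18, 7.79, 7.34 and 7.62 in lcb4 lcb5 (-0.80 ± 0.14, adjusted p 0.0351). GLE1 (YDL207W), a nuclear pore protein needed for mRNA export, read 5.57, 5.60, 5.42 and 5.64 in dpl1, against 6.31, 6.63, 6.06 and 6.20 in lcb4 lcb5 (-0.74 ± 0.14, adjusted p 0.0438). For both genes the groups did not overlap, but neither was called in any of the 8 fits that left out 1 array, nor with the course as a random block (adjusted p 0.0704 for RIM21 and 0.0906 for GLE1). The number of called protein-coding genes, 12 with all arrays, was 20, 4 and 4 without dpl1 15 min replicate 1, 20 min replicate 1 and 20 min replicate 2. It was 6, 5 and 4 without lcb4 lcb5 15 min replicate 2, 20 min replicate 1 and 20 min replicate 2. When protein-coding genes were fitted and adjusted alone, an alternative added after the data were seen, the 4 called were DPL1, LCB5, LCB4 and KDX1.

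In the mitochondrial genome 3 genes were higher in dpl1. ATP6, a subunit of the ATP synthase, read 8.98, 6.96, 9.72 and 7.06 in dpl1, against 8.46, 4.56, 8.06 and 4.48 in lcb4 lcb5 (1.79 ± 0.30, adjusted p 0.0314). The intron-encoded AI1 and SCEI, named after their values were seen, differed by 2.12 ± 0.35 and 1.20 ± 0.21. For all 3 the strains overlapped, because replicate 2 was far below replicate 1 in both strains, and the calls rest on the replicate block. ATP6, AI1 and SCEI were called in 2, 3 and 1 of the 8 fits without 1 array, and SCEI was not called with the course as a random block (adjusted p 0.0704). Of the 19 mitochondrially encoded genes 17 had a positive difference, with a median of 0.46. COX3, a cytochrome oxidase subunit, had 0.28 within replicate 1 and -2.28 within replicate 2. The 3 called genes read low on the replicate 2 arrays, where the 18S control was low in both strains, and its part in the result was not tested. YOR072W-B, a small open reading frame of uncharacterised function, was higher by 1.44 ± 0.27 (adjusted p 0.0437) and was called in 2 of those 8 fits and not with the course block (adjusted p 0.0818).

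Nuclear genes of cytochrome oxidase, the bc1 complex and ATP synthase had mostly positive differences, none of which passed the test. All 18 cytochrome oxidase and bc1 complex genes had a positive difference, with a median of 0.46, against -0.06 over all genes. Their median was 0.20 within replicate 1 and 0.78 within replicate 2. COX4, a cytochrome oxidase subunit, read 9.37, 9.80, 8.83 and 9.95 in dpl1, against 8.54, 8.45, 8.72 and 7.45 in lcb4 lcb5 (1.20 ± 0.32, adjusted p 0.149). Of 17 ATP synthase genes 15 were positive, with a median of 0.39, and ATP17 stood at 0.94 ± 0.22 (adjusted p 0.0968). The strains did not overlap for COX4 or ATP17. The dehydrogenases that feed the chain did not share these values: 6 of 11 were positive, and the median was 0.04, with -0.10 within replicate 1 and 0.04 within replicate 2.

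Ribosome biogenesis genes gave opposite medians in the 2 replicates. Over 127 genes the median was 0.35 within replicate 1 and -1.07 within replicate 2, and 15 had a positive difference over both. None was called. TIF6, which has the smallest p of the list and encodes a factor of large-subunit assembly that keeps the subunits from joining too early, stood at 0.52 ± 0.19 (adjusted p 0.272). The list median of -0.39 therefore describes replicate 2 and not replicate 1. Cytosolic ribosomal protein genes had a median of 0.13 over 82 genes, with -0.04 and 0.26 in the replicates.

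Sphingolipid genes other than the deleted ones were not called. The 40 genes had a median of -0.07 and 17 positive differences, against 40.8% positive over all genes. YPK2, a kinase activated when sphingolipids run low, had the smallest p. It read 6.19, 6.28, 6.44 and 6.84 in dpl1, against 6.71, 7.21, 7.13 and 7.30 in lcb4 lcb5 (-0.65 ± 0.14, adjusted p 0.0713). Only the highest dpl1 array reached into the lcb4 lcb5 range. SUR1, named after its value was seen and a subunit of the enzyme that adds mannose to inositol phosphoceramide, had the list's largest difference, 1.02 ± 0.31 (adjusted p 0.186), with 0.33 within replicate 1 and 1.71 within replicate 2.

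Stress lists lay near 0 at these times. The 34 heat shock chaperone genes had a median of 0.09 and the 44 general stress genes -0.05, with none called. Before heat these list medians were -0.32 and -0.43, against -0.02 over all genes. FES1, an exchange factor of Hsp70, stood at 0.71 ± 0.19 (adjusted p 0.147), and MSN4, one of the paired general stress activators, at -0.48 ± 0.15 (0.195). Trehalose and glycogen genes had a median of -0.13 over 22 genes, with the trehalase NTH2 at -0.47 ± 0.15 (0.197).

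Lists of membrane, mating and nutrient genes held no call either, and a few members came close. PUN1, a plasma membrane protein of the eisosome list, read 9.40, 9.25, 9.27 and 9.57 in dpl1, against 9.81, 10.58, 10.06 and 10.75 in lcb4 lcb5. The groups did not overlap, and the difference of -0.93 ± 0.18 missed the threshold at an adjusted p of 0.0501. FIT2, a cell wall protein that retains iron siderophores, read 9.31, 9.77, 9.31 and 10.26 in dpl1, against 8.45, 8.45, 8.80 and 8.02 in lcb4 lcb5 (1.23 ± 0.26, adjusted p 0.0673). Its relative FIT3, named after its value was seen, stood at 1.09 ± 0.24 (0.0759).

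The glucose transporter HXT3 averaged 7.21 ± 0.723 in dpl1 and 8.60 ± 0.515 in lcb4 lcb5 (-1.39 ± 0.31, adjusted p 0.0802). TEC1, a transcription factor of filamentous growth, stood at -0.73 ± 0.16 (0.0713), and AFB1, an alpha-specific protein that binds a-factor, at -0.83 ± 0.19 (0.0841). CAT2, the carnitine acetyltransferase, stood at -0.88 ± 0.20 (0.0797) in a peroxisome list of 38 genes with 6 positive differences and a median of -0.24. IDP2, a cytosolic isocitrate dehydrogenase, stood at -0.96 ± 0.21 (0.0759) and CYC3, which attaches haem to cytochrome c, at -0.90 ± 0.20 (0.0797). The strains did not overlap for FIT2, FIT3, HXT3, TEC1, AFB1, CAT2, IDP2 or CYC3.

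The remaining lists also held no call, and each is given by its member of smallest p. DAL1, the allantoinase of nitrogen catabolism, averaged 5.85 in dpl1 and 5.17 in lcb4 lcb5 without overlap (0.67 ± 0.13, adjusted p 0.0596). DAN4, a cell wall mannoprotein made without oxygen, averaged 6.19 in dpl1 and 6.91 in lcb4 lcb5 (-0.71 ± 0.16, 0.0778). CLN1, a G1 cyclin, stood at -0.59 ± 0.14 (0.0924) and CDC20, an activator of the anaphase-promoting complex, at -0.56 ± 0.15 (0.132). HAC1, the transcription factor of the unfolded protein response, averaged 11.40 in dpl1 and 10.19 in lcb4 lcb5 (1.21 ± 0.31, 0.126). SER3, an enzyme of serine synthesis, stood at 1.04 ± 0.27 (0.133). HMG2, one of the HMG-CoA reductases of ergosterol synthesis, stood at -0.49 ± 0.14 (0.168), ATG11, a scaffold of selective autophagy, at -0.51 ± 0.15 (0.170) and PAN3, a subunit of a poly(A) nuclease, at -0.62 ± 0.15 (0.109).

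Smaller differences led the other lists. MRPL13, a mitochondrial ribosomal protein, stood at -0.47 ± 0.13 (adjusted p 0.152) and GDE1, a glycerophosphocholine phosphodiesterase, at -0.49 ± 0.15 (0.187). TIM13, an import chaperone of mitochondria, stood at -0.44 ± 0.14 (0.210), RME1, a repressor of meiosis, at -0.45 ± 0.15 (0.241) and HYP2, the translation factor eIF5A, at 0.57 ± 0.20 (0.254). URA10, RPL9A, HOM2, HOP1, THI20, DLD1, PSD2, PFK26, PRE2, SRX1, GNP1 and MFA1 had adjusted p from 0.270 to 0.416 and differences from -0.64 to 0.56. The strains overlapped for these 12 genes.

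**Figure D4:**
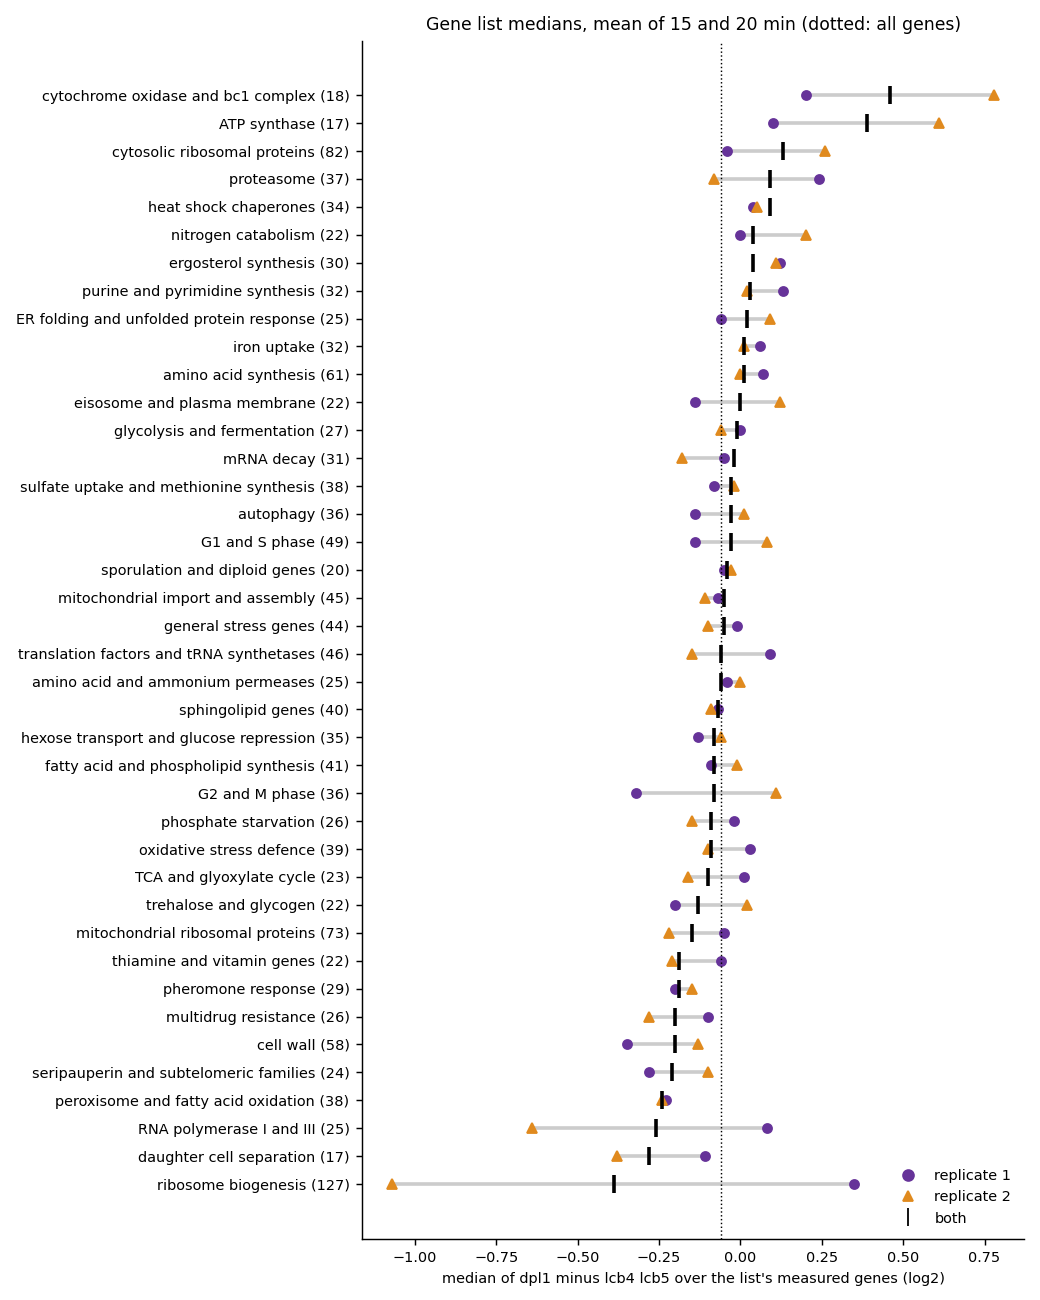
Median strain difference (dpl1 minus lcb4 lcb5, log2, mean of 15 and 20 min) of the 40 gene lists with 15 or more measured genes, the number in brackets; circles are replicate 1, triangles replicate 2, bars both, and the dotted line is the median of all genes (-0.06). Ribosome biogenesis lies on opposite sides of 0 in the 2 replicates, while the cytochrome oxidase and bc1 list is positive in both.

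The difference was seen at each time separately with fewer calls. At 15 min 14 genes (0.248%) were called, 13 higher (0.230%) and 1 lower (0.0177%), of which 12 were tRNA genes. At 20 min 30 genes (0.530%) were called, 29 higher (0.513%) and 1 lower (0.0177%), of which 24 were tRNA genes. The lower gene was DPL1 at both times. The median tRNA difference was 1.23 at 15 min and 1.77 at 20 min, and 91 of 91 tRNA genes had a positive difference at each time. EMT5 differed by 2.85 at 15 min and 3.55 at 20 min, KDX1 by -1.47 and -1.35, and PDR5 by -1.46 and -1.23. At 15 min the count fell to 1 or 2 without any one of the 15 min arrays and to 4 without either dpl1 20 min array. At 20 min it was 14 and 10 without dpl1 replicate 1 and 2, 19 and 16 without lcb4 lcb5 replicate 1 and 2, and 80 without either dpl1 15 min array.

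No gene was called for a change of the strain difference between 15 and 20 min (0 of 5656, 0%). At an unadjusted p under 0.05 there were 130 genes, and the smallest adjusted p was 0.999. Among the genes of smallest p, the tRNA gene YNCM0033C differed by 2.11 at 15 min and 3.61 at 20 min. SNR17A, a U3 guide RNA of ribosomal RNA processing, differed by 0.28 and 1.44 at these times. BNI1, a formin that builds actin cables, stood at -1.25 at 15 min and -0.03 at 20 min, and RPL21B, a ribosomal protein, at 0.54 and -0.68. MSW1, the mitochondrial tryptophan tRNA synthetase, stood at 0.80 and -0.33, NAT4, a histone acetyltransferase, at -0.07 and 1.15, and the guide RNA SNR38 at -0.09 and 1.26.

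Before heat 6 genes (0.106%) were called between the strains, 2 higher (0.0354%) and 4 lower (0.0707%) in dpl1. DPL1, LCB4 and LCB5 were 3 of them, at -5.41, 2.38 and 2.61. HSP26, a small heat shock chaperone, read 3.97 and 4.20 in dpl1, against 6.53 and 6.72 in lcb4 lcb5, a difference of -2.54 (adjusted p 0.000169). CWP1, a cell wall mannoprotein, read 8.67 and 7.32 in dpl1, against 10.37 and 10.46 in lcb4 lcb5 (-2.41, adjusted p 0.0492). KDX1 was lower by 1.75 (adjusted p 0.0492). HSP26 stayed called in all 12 fits that left out 1 array, while CWP1 and KDX1 were called in 3 and 2 of them. The number of calls was 21 without dpl1 replicate 1 before heat and 3 without lcb4 lcb5 replicate 2 before heat. No tRNA gene was called, and their median difference was 0.47.

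For 16 genes (0.283%) the difference at 15 and 20 min differed from that before heat, 15 with a positive change (0.265%) and 1 with a negative one (0.0177%). Of the 15, 13 were tRNA genes. HSP26 changed by 2.62 (adjusted p 0.00176). At 15 and 20 min it read 11.88, 11.96, 12.10 and 12.20 in dpl1, against 11.66, 11.94, 11.93 and 12.27 in lcb4 lcb5, and the strains overlapped (0.08 ± 0.13, adjusted p 0.778). EMT5 changed by 2.75, with 0.45 before heat, and YNCJ0018W by 2.76, with 0.49 before heat. WSC4, a sensor-like protein of the cell surface, changed by -2.13 (adjusted p 0.0442), with 1.63 before heat and -0.50 ± 0.19 in heat. LCB5, which is deleted in lcb4 lcb5, changed by 1.70 (adjusted p 0.0469). It averaged 5.82 before heat and 7.17 and 7.42 at 15 and 20 min in dpl1, and 5.25, 7.34 and 7.41 in the parent. The lcb4 lcb5 arrays stayed low, at 3.21, 3.06 and 2.91. KDX1 and PDR5 were not called for such a change, at 0.34 and -0.09.

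The count of 16 depended on single arrays, since each strain has only 2 before heat. It was 1 without the replicate 2 array before heat of either dpl1 or lcb4 lcb5, 5 without lcb4 lcb5 replicate 1 before heat, and 8, 4 and 4 without dpl1 15 min replicate 1 and the dpl1 20 min replicates. It was 7 and 4 without lcb4 lcb5 15 min replicates 1 and 2. HSP26 stayed called in all 12 such fits, EMT5 in 10, and WSC4 and LCB5 in 1 each. Without the replicate block 1 gene was called, and with all 42 arrays in the fit 0 were.

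**Figure D5:**
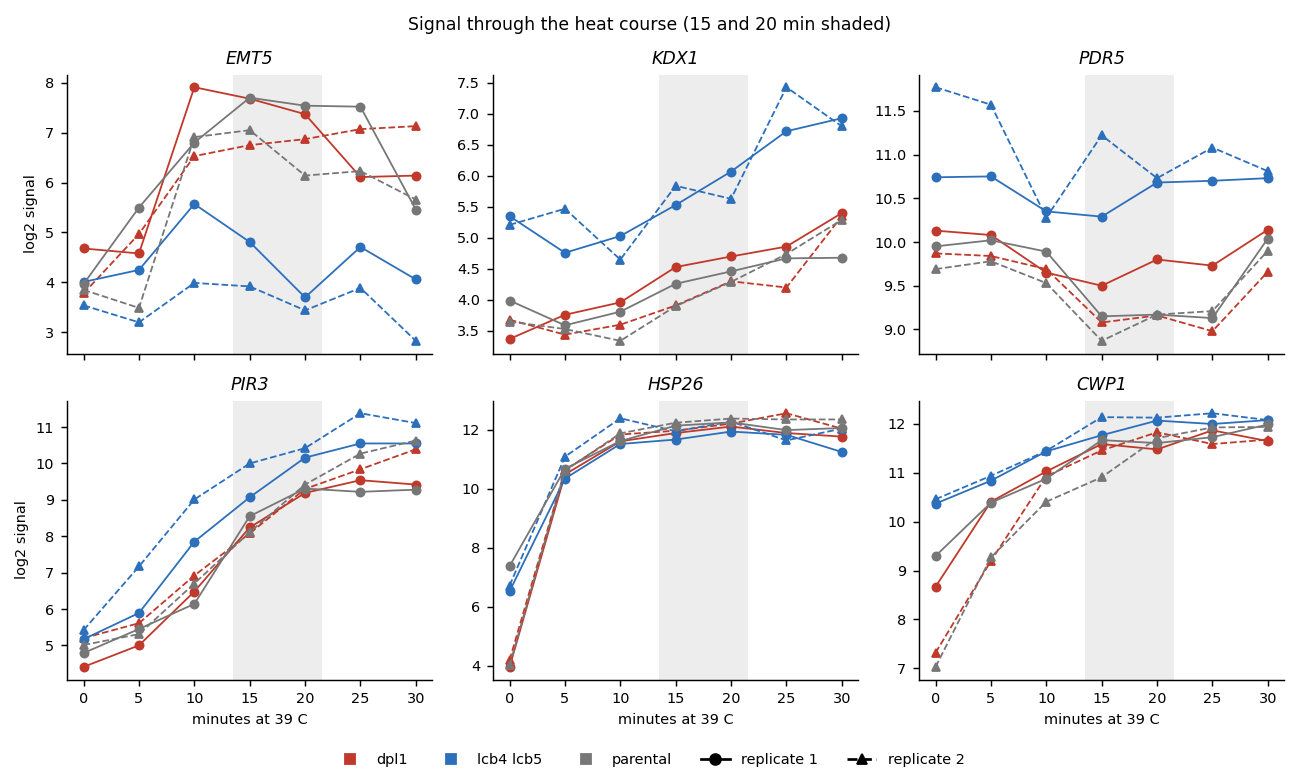
Log2 signal of 6 genes against minutes at 39 C in dpl1, lcb4 lcb5 and the parental strain (solid lines and circles, replicate 1; dashed lines and triangles, replicate 2; 15 and 20 min shaded). KDX1 and PDR5 are lower in dpl1 than in lcb4 lcb5 at all 7 times, EMT5 separates during heat, and HSP26 differs before heat (-2.54) and not at 15 and 20 min (0.08).

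The whole course shows how long these differences lasted, as a description. For KDX1 both dpl1 arrays lay below both lcb4 lcb5 arrays at 7 of 7 times, with differences from -2.55 to -1.06. The same held for PDR5 (-1.54 to -0.65), PUN1 (-0.99 to -0.80), PDR3 (-1.30 to -0.63), PST1 (-1.29 to -0.78) and CWP1 (-2.41 to -0.38). PIR3 was separated at 6 of 7 times, all but the time before heat, and RIM21 and GLE1 at 5 and 6. EMT5 was higher in dpl1 without overlap at 6 of 7 times, with differences of 0.45 before heat and 1.05, 2.44, 2.85, 3.55, 2.29 and 3.19 at 5, 10, 15, 20, 25 and 30 min. The median tRNA signal was higher in dpl1 in 13 of 14 pairs of arrays of the same time and replicate, from -0.09 to 2.35. RPR1 and SNR52 were separated at 3 and 5 of 7 times. COX4 was higher in dpl1 at 7 of 7 times, by 0.69 to 1.65.

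The parental arrays show on which side each strain stood. The comparisons with the parent share arrays with each other and with the main comparison, so their values are set side by side only. Between dpl1 and the parent 1 gene (0.0177%) was called at 15 and 20 min, DPL1 itself, and it was lower (0 higher, 0%). At an unadjusted p under 0.05 there were 308 genes. Between lcb4 lcb5 and the parent 250 genes (4.42%) were called, 132 higher (2.33%) and 118 lower (2.09%), and 72 of the lower genes were tRNA genes. The 132 higher genes were all protein-coding.

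Of the 50 tRNA genes called between dpl1 and lcb4 lcb5, 50 were called between lcb4 lcb5 and the parent and 0 between dpl1 and the parent, and in all 50 dpl1 stood nearer the parent. These 50, like the other called genes below, were picked on the same lcb4 lcb5 arrays, which favours such a result. Of all 91 tRNA genes, without that choice, 72 were called lower in lcb4 lcb5 than in the parent and 0 were called between dpl1 and the parent. The median tRNA difference was -0.48 for dpl1 minus parent and -2.02 for lcb4 lcb5 minus parent. EMT5 stood at 0.06 and -3.14 in these comparisons, RPR1 at -0.40 and -1.78, and SNR52 at -0.35 and -2.27. KDX1 stood at 0.13 for dpl1 minus parent and 1.54 for lcb4 lcb5 minus parent (adjusted p 0.948 and 0.000116). PDR5 stood at 0.30 and 1.64, PIR3 at -0.15 and 1.07, RIM21 at -0.05 and 0.75, and GLE1 at -0.08 and 0.66, each called in the second of these comparisons and not in the first. Whether the 2 distances from the parent differ in size was not tested apart from the comparison of the strains itself. Of the 12 called protein-coding genes 8 were called between lcb4 lcb5 and the parent. ATP6 stood at 1.14 and -0.65 from the parent and was called in neither comparison.

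The counts against the parent also turned on the replicates. Without replicate 2, 236 genes were called between dpl1 and the parent. Between lcb4 lcb5 and the parent 124 were called without replicate 1. The count was 136 and 129 without the replicate 2 arrays of lcb4 lcb5 at 15 and 20 min, 137 without parental 15 min replicate 1, and 139 and 141 without parental 20 min replicates 1 and 2.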

How the data were processed

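The 42 deposited columns hold log2 signals of 9335 probe sets, made by the authors with RMA, per the submitters' processing notes. RMA as a method corrects background, equalises the distributions of the arrays and summarises each probe set. No source states the log base, and log2 was taken from the values, which span 1.362 to 14.7, and array medians ran from 5.609 to 5.802. No background correction or normalisation was added here. Of the probe sets 60 were controls, 6504 were annotated to 1 gene, 328 to several and 2443 to none. Where a gene had several probe sets (315 genes) the one of highest mean was used, which left 5656 genes.

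The 8 arrays were fitted with limma 3.58.1 in R 4.3.3 as strain, time and replicate number, with 4 residual degrees of freedom, and p-values were adjusted by the Benjamini-Hochberg method over all genes. Comparisons by time, before heat and with the parent used the same blocks. Replicate numbers were treated as pairing arrays because deviations of same-numbered arrays correlated between strains at 0.168 to 0.393 in all 4 pairs. Arrays of the same strain and number at 15 and 20 min correlated at 0.655 and 0.728, so a course is not 2 independent arrays, and a fit with the course as a random block is an alternative. The scripts were tested on simulated data.

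Genes named are DPL1, LCB4 and LCB5, up to 15 called genes per direction whose groups do not overlap, up to 4 called members (or 1 of smallest p) of each of 45 lists, and up to 8 genes for each change. Others are said to be chosen after their values were seen. The members and lists were chosen with earlier results of these data known. Alternatives changed the block, the arrays fitted, the scaling, the probe set rule, the filter on dim genes, the variance model and the threshold. Promoter and protein sequences were not used here. Array data give no read depth, and the number of arrays limits the precision.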

Additional observations from a re-analysis of the deposited data

Results flagged for a closer look

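In 4 of 160 sets of 4 arrays (80 named genes), 1 array stood apart from the other 3 by Dixon's 95% criterion, which chance meets in about 1 set in 20. LCB4 read 3.48 in lcb4 lcb5 at 15 min in replicate 2, with 3.02 as the nearest other value. MSN4 read 7.50 on the same array, with 7.24 nearest. PSD2 read 6.64 in dpl1 at 15 min in replicate 1, with 7.06 nearest, and THI20 read 7.22 in dpl1 at 20 min in replicate 2, with 6.88 nearest.

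For 16 genes the strain difference at 15 and 20 min differed from that before heat by the test of the change itself. HSP26 changed by 2.62, and LCB5, which is deleted in lcb4 lcb5, by 1.70. Among tRNA genes, EMT5 changed by 2.75, YNCJ0018W by 2.76, YNCM0004C by 2.44, YNCB0015W by 2.41, YNCE0010W by 2.34, YNCM0033C by 2.06, YNCK0006C by 2.05, YNCD0011W by 1.94, SUP19 by 1.94, YNCK0003W by 1.87 and YNCJ0011W by 1.81. YNCK0017W and YNCJ0001C changed by 1.72 each. WSC4 changed by -2.13, the one change with a negative sign.

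Among 2771 probe sets outside the gene table, those with several genes or none listed, 21 (0.758%) were called at 15 and 20 min, 17 higher and 4 lower in dpl1. Of these 18 have no gene listed and 3 list several genes.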

How the results depend on the processing

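All tRNA genes called at 15 and 20 min in any alternative run were higher in dpl1, while the number of genes past the threshold depended on the settings and on single arrays. Median centring, cyclic loess, leaving out the dimmest 25% of genes, a robust variance trend, array weights and the mean over probe sets gave 65 to 85 genes called at 15 and 20 min, against 67. Counts below give all genes, then tRNA genes, then protein-coding genes. They were 20, 16 and 4 without the replicate block, 157 (65 higher, 92 lower), 43 and 108 with all 42 arrays, 48, 37 and 7 with the course as a random block, 33, 27 and 4 after centring on the hybridisation controls, 28, 22 and 4 at an adjusted p under 0.01, and 3, 1 and 2 with SRB4 as a covariate. Protein-coding genes alone gave 4. Leaving out 1 array or 1 replicate number gave 24 to 434 genes, 19 to 88 tRNA genes and 4 to 393 protein-coding genes. At 15 min, counts were 2 without the replicate block, 2 with control centring, 3 at 0.01, 29 with SRB4, 2 for protein-coding genes alone, and 1 to 13 with 1 array left out. At 20 min they were 3, 11 with control centring, 53 with SRB4, 2 for protein-coding genes, and 10 to 80. No gene was called for the change between the times in any alternative (0 to 0). Before heat, counts were 15 with all 42 arrays, 1 with control centring, 3 without dim genes and 3 to 21 with 1 array left out. The change from before heat gave 1 without the replicate block, 0 with all 42 arrays and with control centring, 4 at 0.01, 1 for protein-coding genes and 1 to 22. Against the parent, dpl1 gave 2 with all 42 arrays and 1 to 236 with arrays left out. For lcb4 lcb5 the counts were 32 without the replicate block (7 higher, 25 lower), 400 with all 42 arrays (244 higher, 156 lower), 136 with the course block (43 higher, 93 lower), 200 with median centring (78 higher, 122 lower), 191 with cyclic loess (71 higher, 120 lower), 88 with control centring (1 higher, 87 lower), 85 at 0.01, 505 with array weights, 107 for protein-coding genes, and 124 to 372. RPL21B, PFK26 and HSP26 changed sign at 15 and 20 min, none of them called. RPL21B became 0.36 with SRB4, 0.16 without dpl1 20 min replicate 2, and 0.10 and 0.06 without lcb4 lcb5 20 min replicates 1 and 2, within a range of -0.30 to 0.16 over arrays left out. PFK26 became 0.04 with SRB4, and HSP26 was -0.03 without replicate 1 and 0.19 without replicate 2. The causes of these shifts were not tested. Fits of a single time or of the change from before heat without a whole replicate number had no residual degrees of freedom and were not run. With 4 arrays a strain, the smallest difference called was that of GLE1, -0.74.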
